A study of Oryctolagus cuniculus with 12 samples.

Results

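Rod photoreceptor genes were followed through 12 RNA sequencing libraries of rabbit cornea. A set of 9 genes of rod phototransduction and rod outer segment structure was named, and 8 of them were found by gene name among the 29076 genes of the deposited table: SAG, GNAT1, PDE6A, PDE6B, CNGA1, RCVRN, PRPH2 and ROM1. PDE6G had no entry by that name and was not analysed here. The libraries formed 4 groups of 3, labelled blue_light, GL, RL and control. What GL and RL stand for is not stated in the labels. Per the labels all animals were rabbits 6 months old on a normal diet, and the same text of 6 weeks of light exposure stands on every library, controls included. The sources used here give no strain, sex, wavelength or light intensity, nor do they say whether the 3 libraries of a group came from separate animals, so p-values measure the spread between these libraries, which may be technical.

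Rods are the dim-light photoreceptors of the retina. In their outer segments an activated visual pigment switches on the G protein transducin, whose alpha subunit is encoded by GNAT1. Transducin releases the phosphodiesterase made of the PDE6A and PDE6B catalytic subunits, cGMP falls, and the cGMP-gated channel that contains CNGA1 closes. SAG encodes S-arrestin, which binds the activated pigment and ends the signal, and RCVRN encodes recoverin, a calcium sensor that tunes how long the pigment stays active. PRPH2 and ROM1 encode tetraspanin partners that shape the rim of the outer segment discs. The cornea itself has no photoreceptors.

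The labelled tissue was present in every library. KRT12, the keratin of corneal epithelium, was abundant throughout, at 7739 to 14020 FPKM (fragments-per-kilobase-per-million, a level scaled to transcript length and library size), and none of the 9 corneal epithelial genes in the table was at 0 in any library. Total counts per library ran from 40.9 M to 64.7 M. A detection floor of 3 fragments corresponded to a count of 11.4, or 0.176 to 0.278 counts-per-million (CPM). A count of 0 therefore allows a level of up to that floor, and floors and intervals here cover counting error only.

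The 8 genes lay on 8 different sequences of the authors' table, whose genome build is not given in the sources used here. CNGA1 (gene identifier 100009524) spanned positions 36583850 to 36600134 on the minus strand, PRPH2 (100341356) 32253413 to 32266340 on the minus strand and PDE6A (100342363) 31655196 to 31720334 on the minus strand. RCVRN (100357091) spanned 9584107 to 9593347 on the plus strand and GNAT1 (103344966) 17657916 to 17661474 on the plus strand. SAG (100348860) spanned 809270 to 840822 on the plus strand, PDE6B (100342100) 133340 to 145645 on the minus strand and ROM1 (100350532) 1710656 to 1712978 on the minus strand, each on a scaffold. These are whole gene spans, introns included, and the counts are per gene. The authors' description calls the GNAT1 protein model partial.

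Rod transcripts were concentrated in a few libraries rather than in a single labelled group. GL replicate 3 stood far above all others, blue_light 1 and control 2 came next, and RL 2, blue_light 2 and blue_light 3 held smaller amounts. Leaving out ROM1, the other 7 genes summed to 51.1, 9.99 and 9.22 CPM in blue_light 1, 2 and 3, to 2.25, 1.41 and 187 CPM in GL 1, 2 and 3, to 0.959, 13.8 and 0.0643 CPM in RL 1, 2 and 3, and to 0.338, 40.5 and 0.663 CPM in control 1, 2 and 3. Each of GL, RL and control thus had a single library above 10 CPM and the other two below 3 CPM, whereas all 3 blue_light libraries were above 9 CPM. All 8 genes had a count above 0 in 5 libraries, namely all 3 of blue_light, GL 3 and control 2. The number of genes at a count of 0 was 4, 5 and 0 in GL, 4, 1 and 6 in RL, and 6, 0 and 6 in control. In bulk tissue fewer cells of a type and less RNA per cell cannot be told apart.

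**Figure D1:**
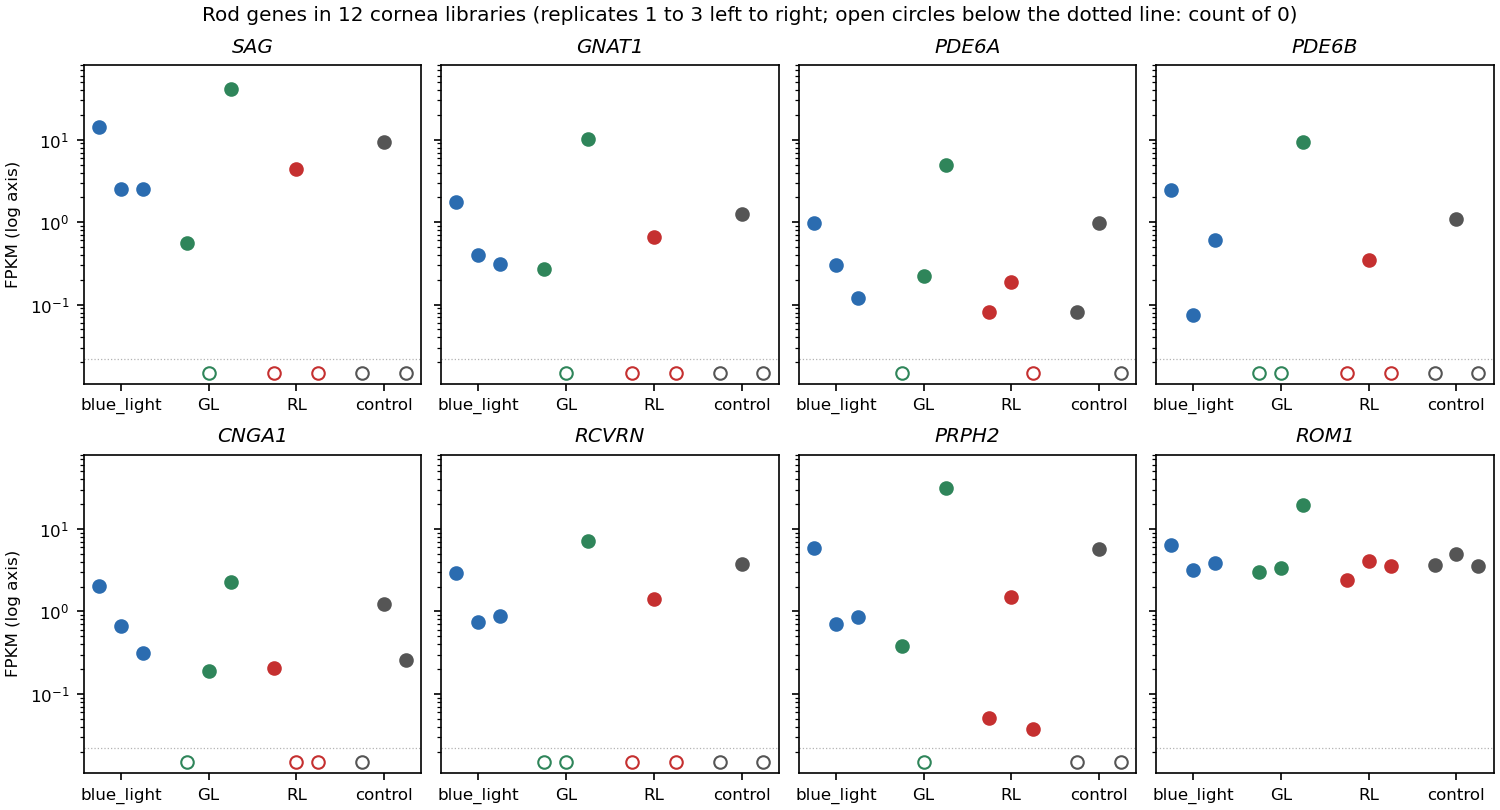
FPKM of each rod gene (log axis) in the blue_light, GL, RL and control libraries, replicates 1 to 3 from left to right within a group, with open circles for a count of 0. GL 3 is the highest point in every panel, and ROM1 is the one gene with a filled circle in all 12 libraries.

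SAG was the most abundant of the 8 per transcript length in GL 3, blue_light 1, RL 2 and control 2. Its level was 14.2, 2.52 and 2.49 FPKM in blue_light, 0.559, 0 and 41.2 FPKM in GL, 0, 4.42 and 0 FPKM in RL, and 0, 9.47 and 0 FPKM in control, for replicates 1, 2 and 3. Each of GL, RL and control had a single library well above the other two, and the groups overlapped. The transducin gene GNAT1 stood at 1.77, 0.400 and 0.311 FPKM in blue_light, 0.271, 0 and 10.3 FPKM in GL, 0, 0.661 and 0 FPKM in RL, and 0, 1.24 and 0 FPKM in control. The same libraries were high for GNAT1 as for SAG, and the same 5 libraries stood at 0.

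The phosphodiesterase subunits stood below SAG in FPKM wherever SAG was detected. PDE6A stood at 0.987, 0.303 and 0.1195 FPKM in blue_light, 0, 0.222 and 4.92 FPKM in GL, 0.0822, 0.189 and 0 FPKM in RL, and 0.0804, 0.986 and 0 FPKM in control. PDE6B stood at 2.43, 0.0742 and 0.614 FPKM in blue_light, 0, 0 and 9.26 FPKM in GL, 0, 0.348 and 0 FPKM in RL, and 0, 1.09 and 0 FPKM in control. Both peaked in GL 3 and were next highest in blue_light 1 and control 2, although control 1 and RL 1 held PDE6A counts of 15 and 16 and no PDE6B. PDE6B in blue_light 2 rested on a count of 5, below the floor.

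CNGA1, the channel subunit, had the lowest GL 3 level of the 8 genes. It stood at 2.01, 0.662 and 0.316 FPKM in blue_light, 0, 0.191 and 2.29 FPKM in GL, 0.204, 0 and 0 FPKM in RL, and 0, 1.23 and 0.256 FPKM in control. GL 3 and blue_light 1 lay side by side for CNGA1, unlike the genes above, and RL 2 was at a count of 0 although it was the fourth highest library for the sum of the 7 genes. RCVRN stood at 2.90, 0.749 and 0.884 FPKM in blue_light, 0, 0 and 7.20 FPKM in GL, 0, 1.42 and 0 FPKM in RL, and 0, 3.76 and 0 FPKM in control. RCVRN was at 0 in 6 of 12 libraries, the same 6 in which PDE6B was at 0.

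The disc rim genes differed from each other. PRPH2 stood at 5.80, 0.704 and 0.847 FPKM in blue_light, 0.381, 0 and 31.5 FPKM in GL, 0.0509, 1.51 and 0.0380 FPKM in RL, and 0, 5.73 and 0 FPKM in control. ROM1 stood at 6.39, 3.21 and 3.92 FPKM in blue_light, 2.98, 3.39 and 19.7 FPKM in GL, 2.37, 4.14 and 3.56 FPKM in RL, and 3.69, 4.94 and 3.54 FPKM in control. PRPH2 followed the pattern of SAG, whereas ROM1 was present in all 12 libraries and ranged from 2.37 to 6.39 FPKM outside GL 3. In RL 3, control 1 and control 3, where the other 7 genes together came to counts of 4, 15 and 31, ROM1 had counts of 424, 315 and 319.

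By group mean, 7 of the 8 genes had the order GL, blue_light, control, RL from high to low, and CNGA1 had blue_light first. By group median, blue_light was highest for all 8. SAG averaged 6.41 ± 6.76 FPKM in blue_light, 13.9 ± 23.6 FPKM in GL, 1.47 ± 2.55 FPKM in RL and 3.16 ± 5.47 FPKM in control (SD, n = 3 each). ROM1 averaged 4.51 ± 1.67 FPKM in blue_light, 8.70 ± 9.55 FPKM in GL, 3.36 ± 0.899 FPKM in RL and 4.06 ± 0.770 FPKM in control (SD, n = 3 each). Neighbours in these orders overlapped for all 8 genes, so none of the steps exceeded the spread between libraries.

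Each of blue_light, GL and RL was compared with control for differences in transcript level. No rod gene passed the threshold of an adjusted p below 0.05 in any of the 3 comparisons. All 8 genes passed the filter on low counts. In blue_light minus control 0 of 8 were called, beside 0.0165% of the 18171 genes tested. The fitted log2 folds of the 8 ran from 0.14 to 1.44 with standard errors of 0.60 to 2.47, and their median was 0.64 against 0.01 over all genes. SAG had a log2 fold of 0.96 ± 2.33 (SE, edgeR quasi-likelihood adjusted p = 1). In GL minus control 0 of 8 were called, beside 0.055% of all genes. The folds ran from 0.77 to 3.12 with a median of 2.24, against -0.02 over all genes, and the smallest adjusted p was that of ROM1 (log2 fold 1.16 ± 0.61, edgeR adjusted p = 0.617). GNAT1 had the largest GL fold, 3.12 ± 2.36 (edgeR adjusted p = 0.729).

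In RL minus control 0 of 8 were called, beside 0.011% of all genes. The folds ran from -2.87 for CNGA1 to -0.20 for ROM1, with a median of -1.43 against 0.00449 over all genes. A test of any difference among the 4 groups called 0 of 8, beside 0.0605% of all genes, with edgeR adjusted p-values of 0.688 for ROM1 to 0.976 for RCVRN. In the comparisons with control none of the 8 had an unadjusted edgeR p below 0.05, and none was called by limma. DESeq2 gave a p for PDE6A, PDE6B and CNGA1 alone and called none of these 3, and it returned no p for the other 5, which are untested by it. The 3 comparisons share the control libraries. Signs rested on single libraries: without GL 3 all 8 folds of GL minus control were negative (log2 -9.77 to -0.30), and without blue_light 1 all 8 of blue_light minus control were negative (-1.30 to -0.03). With blue_light 1, GL 3 and control 2 all left out, the 8 blue_light folds were positive, from 0.0071 for ROM1 to 10.43 for SAG, where the remaining control libraries had no SAG count. In that setting the GL folds of SAG, GNAT1, PRPH2 and PDE6A were positive too (1.53 to 7.67), and those of CNGA1 and ROM1 were negative. Without control 2 the RL folds were positive for SAG, RCVRN, GNAT1, PDE6A, PDE6B and PRPH2 (1.26 to 9.75).

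**Figure D2:**
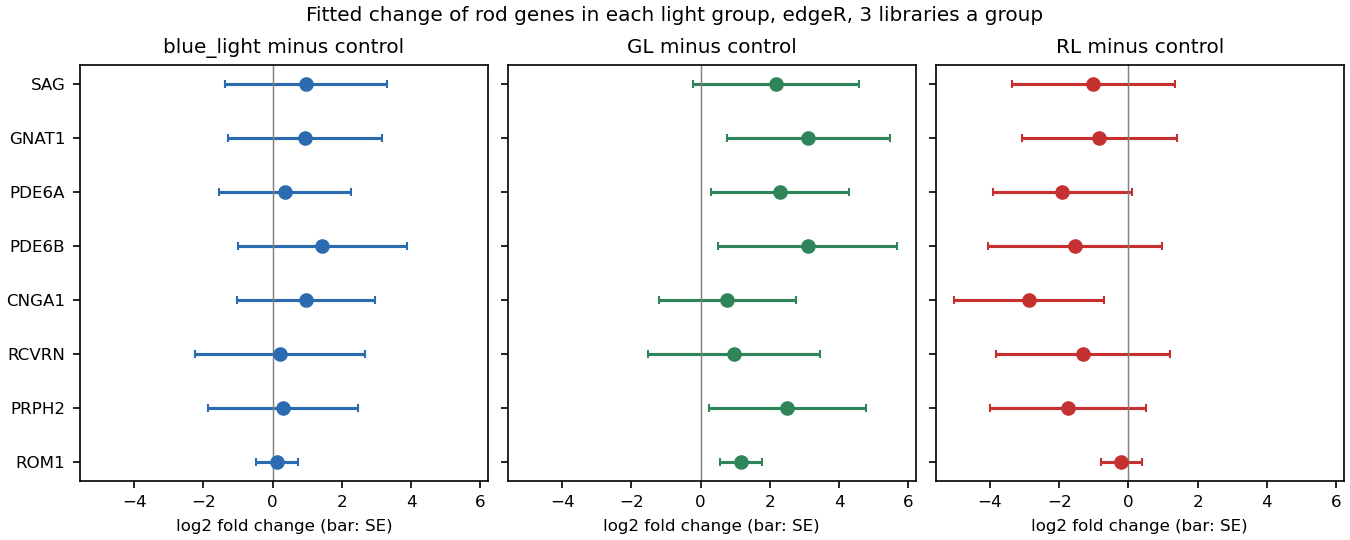
Fitted log2 fold change of each rod gene in blue_light, GL and RL against control, with points for edgeR estimates and bars for 1 standard error. The folds are positive in blue_light and GL and negative in RL, no gene is called in any panel, and ROM1 has the narrowest bars.

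Whether the 8 genes kept constant ratios over libraries was examined next, since a single source of RNA that differs only in amount would leave the ratios unchanged. Ratios varied less than levels for most of the genes, but by more than counting error. For each gene the SD over libraries of its log2 level was compared with the SD of its log2 ratio to the summed counts of the other 7, in the libraries where it was above 0. The ratio SD was below the level SD for 7 of 8, with medians of 0.69 for ratios and 1.91 for levels on the log2 scale. SAG had a level SD of 2.02 and a ratio SD of 0.67 over 7 libraries, and GNAT1 had 1.84 and 0.45 over 7. ROM1 was the exception, with a level SD of 0.78 and a ratio SD of 2.87 over 12 libraries. These values leave out libraries at 0. With 1 count added so that all 12 libraries entered, the medians were 2.72 for ratios and 3.70 for levels, SAG had a ratio SD of 3.42, and the ratio SD was again below the level SD for 7 of 8, all but ROM1.

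In the 5 libraries with all 8 genes above 0, the ratio SD was below the level SD for 8 of 8 (medians 0.75 and 1.87). When ROM1 was left out of the sums in these 5 libraries, SAG held its ratio to the other 6 most closely (SD 0.21), followed by GNAT1 (0.38), PDE6A (0.51), PRPH2 (0.59), RCVRN (0.62), CNGA1 (0.97) and PDE6B (1.28). The PDE6B value rests in part on the count of 5 in blue_light 2. Over all libraries in which each gene was above 0, also without ROM1, the ratio SD was larger for most of the genes. It was 0.27 for SAG, 0.69 for PRPH2, 0.88 for GNAT1, 1.74 for PDE6A and 1.76 for CNGA1. It was not larger for RCVRN (0.618) and PDE6B (1.15). The CNGA1 ratio SD exceeded its level SD of 1.51, so the ratio SD was below the level SD for 6 of 7. For comparison in the same 5 libraries, 13 lens genes had a median ratio SD of 0.45 beside a level SD of 1.36. The 9 corneal epithelial genes had 0.35 beside 0.42, so their ratios moved nearly as much as their levels. The lens and epithelial genes had to be at or above the floor in all 12 libraries, unlike the rod genes. Most of them were more abundant than the rod genes, so counting error weighs more on the rod ratios. These are descriptions of 5 libraries, with no test between the sets.

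The make-up of the rod transcripts differed between libraries, and the shares of some of the genes are given here. SAG held 38.9%, 29.2% and 26.2% of the summed FPKM of the 8 genes in blue_light 1, 2 and 3, 32.6% in GL 3, 34.8% in RL 2 and 33.3% in control 2. ROM1 held 17.5%, 37.2% and 41.2% in blue_light 1, 2 and 3, 15.6% in GL 3, 32.6% in RL 2 and 17.4% in control 2. ROM1 thus had its larger shares in the libraries with fewer rod transcripts, and reached 97.9% in control 1 and 98.9% in RL 3. CNGA1 held 5.50%, 7.68% and 3.33% in blue_light 1, 2 and 3, 1.81% in GL 3, none in RL 2 and 4.33% in control 2. PRPH2 held 15.9%, 8.17% and 8.92% in blue_light 1, 2 and 3, 24.9% in GL 3, 11.9% in RL 2 and 20.1% in control 2. PDE6B held 6.66%, 0.861% and 6.46% in blue_light 1, 2 and 3, 7.32% in GL 3, 2.74% in RL 2 and 3.84% in control 2. Its blue_light 2 share rests on a count of 5.

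**Figure D3:**
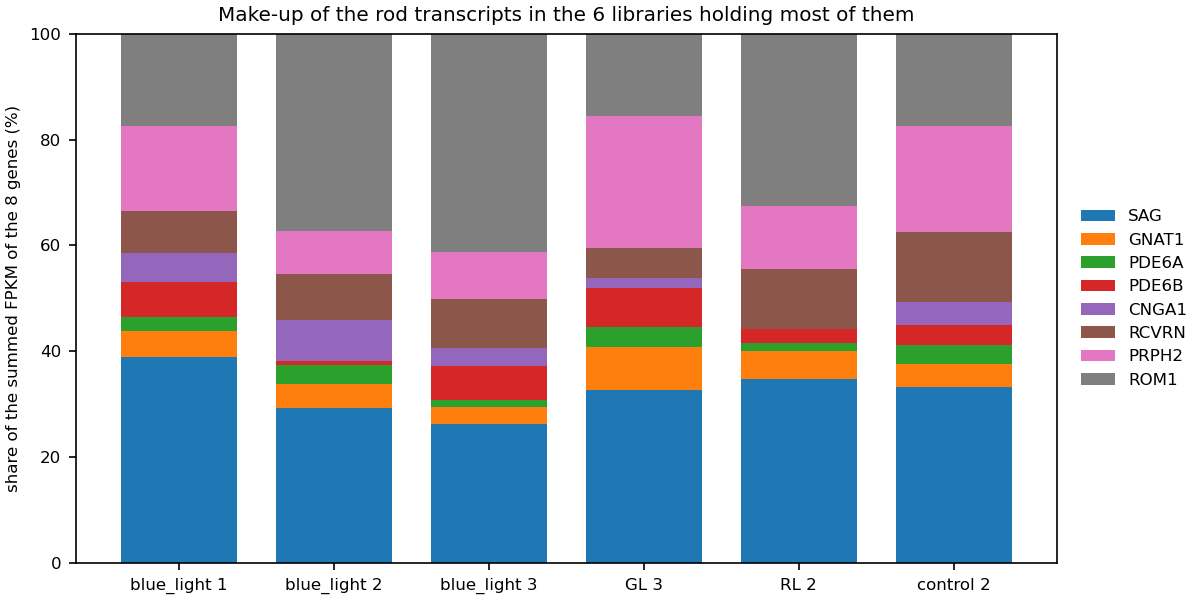
Share of the summed FPKM of the 8 rod genes held by each gene, as stacked bars from 0 to 100%, in the 6 libraries with most rod transcripts. The SAG segment stays between 26.2% and 38.9%, while the ROM1 segment runs from 15.6% to 41.2% and the CNGA1 segment from 0 to 7.68%.

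The 3 libraries richest in rod transcripts were also compared with each other, as a comparison of these libraries and not of their conditions. If ratios were constant, every gene would show one fold between a pair of libraries. From GL 3 over blue_light 1, the 7 genes other than ROM1 together gave 3.67-fold more CPM in GL 3, and single genes ran from 1.13-fold to 5.73-fold. CNGA1 was 1.13-fold higher in GL 3 (95% exact interval 0.804 to 1.60, from 98 and 55 fragments), and GNAT1 was 5.73-fold higher (4.47 to 7.58, from 592 and 65 fragments). The fold of the other genes, with ROM1 left out, lay inside the counting interval of 2 of 8 genes, below it for 3 (GNAT1, PDE6A, PRPH2) and above it for 3 (SAG, RCVRN, CNGA1). That fold was taken as fixed, here and below, so its own counting error is not in the intervals. A gene close to an edge, such as PDE6A (lower end 3.578 against 3.559), is thus not resolved as outside.

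From GL 3 over control 2 the 7 genes gave 4.63-fold together and 1.84-fold to 8.30-fold singly. CNGA1 was again the lowest at 1.84-fold (1.28 to 2.66), with RCVRN at 1.90-fold (1.48 to 2.47), while PDE6B at 8.30-fold (5.45 to 13.5) and GNAT1 at 8.20-fold (6.29 to 10.7) were the highest. The fold of the other genes lay inside the interval for 3 of 8, below it for 3 and above it for 2. For PRPH2 it was close to the edge (4.395 against a lower end of 4.55). From blue_light 1 over control 2 the genes lay closer, 1.26-fold together and 0.774-fold for RCVRN to 2.23-fold for PDE6B singly. Here 4 of 8 intervals held the fold of the other genes, and that of PRPH2 missed it narrowly (upper end 1.334 against 1.335). These intervals hold counting error of the estimated fragments of the single gene. They hold neither the counting error of the other genes nor the variation of a library preparation.

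**Figure D4:**
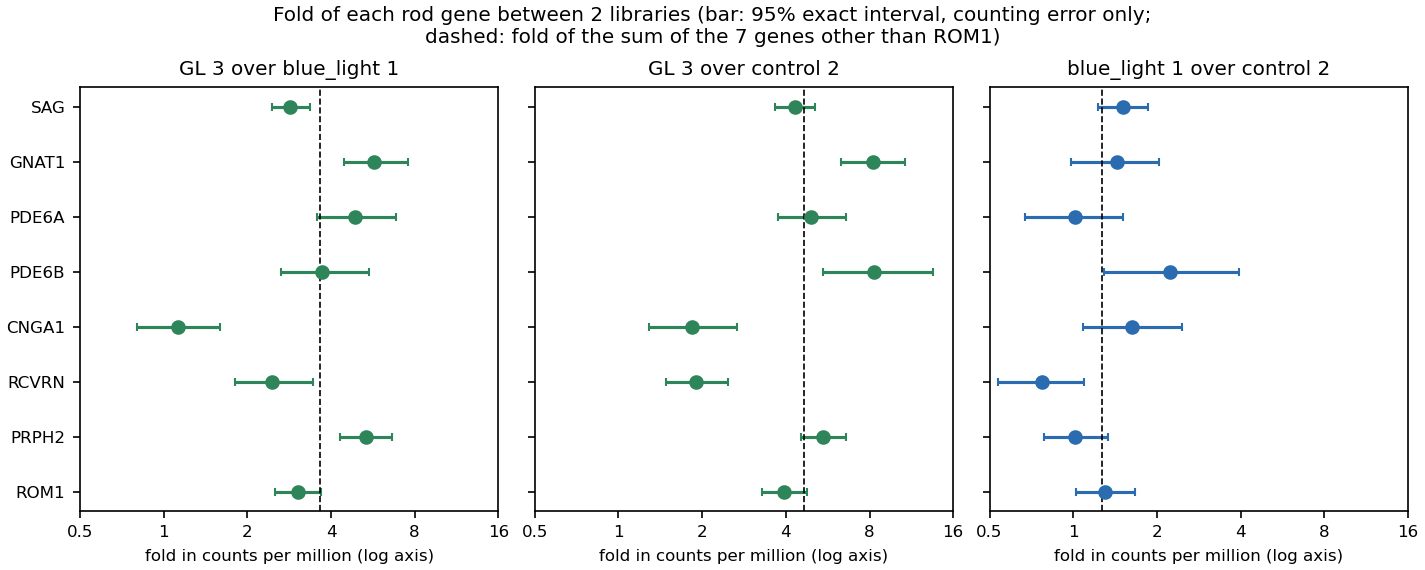
Fold of each rod gene in CPM (log axis) for GL 3 over blue_light 1, GL 3 over control 2 and blue_light 1 over control 2, with bars for 95% exact counting intervals and a dashed line for the sum of the 7 genes other than ROM1. CNGA1 and RCVRN lie left of the line in both GL 3 panels, and GNAT1 lies right of it.

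Over all 12 libraries, the fragments of each of the 7 genes spread around a constant share of the 7-gene total by 2.34 (PDE6B) to 32.4 (CNGA1) times the variance that counting alone would give (Pearson statistic per degree of freedom). SAG had 4.49, PRPH2 5.45, GNAT1 5.82, RCVRN 8.68 and PDE6A 12.3. The 2 genes with the widest spread, CNGA1 and PDE6A, also had counts in libraries where the rest of the rod genes were near 0. CNGA1 had 31 of the 31 counts of the 7 genes in control 3, and PDE6A had 15 of the 15 in control 1.

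Genes outside the 8 were used to ask whether the rod genes followed other photoreceptor transcripts. An index was formed from the summed CPM of 34 other photoreceptor genes, and each gene's slope on the log2 index was fitted with the 4 groups in the model, so that a slope of 1 means a constant ratio to the index. By edgeR the slopes of 7 of the 8 genes were above 1. GNAT1 had 2.20 ± 0.71 (SE), SAG 2.51 ± 0.76, PRPH2 2.55 ± 0.64, PDE6A 1.97 ± 0.57, PDE6B 3.58 ± 0.80, RCVRN 3.94 ± 0.99 and CNGA1 1.70 ± 0.64. ROM1 had 0.68 ± 0.12. All 8 had an unadjusted edgeR p below 0.05, as did 549 of the 18137 genes tested, but 0 of 8 passed after adjustment over all genes (edgeR adjusted p 0.885 to 1), beside 0% of all genes. By limma on log2(FPKM + 1) 7 of the 8 were called, all but ROM1, among 32 genes in all. How many genes limma tested is not given here. The index stood at 739.5 CPM in GL 3, 275.3 CPM in blue_light 1 and 190.5 CPM in control 2, and at 106.9 CPM or less elsewhere. Those 3 libraries, also the highest for the rod genes, thus held most of the spread of the index. On the log2(FPKM + 1) scale, which understates changes of low genes, only SAG (1.61) and PRPH2 (1.47) had slopes above 1. The others ran from 0.54 for CNGA1 to 0.97 for RCVRN.

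A slope of exactly 1 was tested in a second fit. It differed for 4 of 8 genes (ROM1, RCVRN, PDE6B and PRPH2, edgeR adjusted p 0.00845 to 0.0371), beside 78.2% of all genes, whose median slope was -0.015. SAG (adjusted p = 0.0752), GNAT1 (0.126), PDE6A (0.129) and CNGA1 (0.325) did not pass by edgeR, which does not show that their slope was 1. The index also held 9 genes that stood above the floor in every library, among them RGS9, a G protein regulator that made up 21.9% of the index on average, SLC24A1 (12.2%) and the cone transducin gene GNAT2 (12.0%). With those 9 left out, a choice made after seeing the data, the slopes were lower, at 1.97 ± 0.42 for SAG, 1.75 ± 0.40 for GNAT1, 1.23 ± 0.33 for PDE6A, 0.89 ± 0.41 for CNGA1 and 0.43 ± 0.08 for ROM1. RCVRN (2.72 ± 0.50), PDE6B (2.41 ± 0.43) and PRPH2 (1.94 ± 0.32) stayed above 1 (edgeR adjusted p for a slope of 1 of 0.00702, 0.00721 and 0.0142). SAG (edgeR adjusted p = 0.0443) and ROM1 (4.99e-05) then also differed from a slope of 1. The share of all genes that differed with this smaller index is not given here. With the full index it was 78.2%, so nothing particular to the rod genes is drawn from these calls.

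The genes whose pattern over the 12 libraries was most like the mean of the 8 included several genes of photoreceptors. Among the 8 with the highest Pearson correlation of log2 CPM, of 12981 genes with a symbol, were the cone arrestin gene ARR3 (r = 0.986), the beta-synuclein gene SNCB (0.983), the complexin gene CPLX4 (0.983), GUCA1A, which encodes a guanylate cyclase activator of photoreceptors (0.981), RBP3, which encodes the retinoid-binding protein between retina and pigment epithelium (0.960), and CNGB1, the partner subunit of CNGA1 (0.944). GUCA1A stood at 5.10 CPM in blue_light 1, 15.1 CPM in GL 3 and 2.70 CPM in control 2, and at no more than 1.21 CPM in the 9 others. CPLX4 stood at 2.03, 7.58 and 1.16 CPM in these 3 libraries and at no more than 0.679 CPM elsewhere. These correlations run over 12 libraries in which GL 3 was the highest for each of these genes, and are given as a description.

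Lists of other eye cell types stood beside these values as follows, and by edgeR 0 of their genes were called in any comparison with control. Of 24 other rod and shared photoreceptor genes tested, 14 were higher in blue_light, 23 in GL and 4 in RL than in control (median log2 0.32, 1.85 and -1.15). At an unadjusted edgeR p below 0.05 there were 1, 2 and 2 of them, beside 3.26%, 8.10% and 4.74% of all genes in blue_light, GL and RL. DESeq2, which gave an adjusted p for 13 of the 24, called 1 in GL, among 183 genes in all, and limma none. Of the 25 genes of this list in the table, 23 were highest in GL 3. The exceptions were NR2E3, a rod transcription factor that was highest in control 2 at 4.67 FPKM against 2.18 FPKM in GL 3 and was named after its values were seen, and GNGT1. GNGT1, the rod transducin gamma subunit, stood at 24.5, 1.51 and 3.22 FPKM in blue_light, 1.496, 0 and 14.2 FPKM in GL, 0.402, 1.81 and 0 FPKM in RL, and 0, 1.92 and 0 FPKM in control. Blue_light 1 was the highest library for GNGT1, and the groups overlapped. Of 11 cone genes, 10, 9 and 6 were higher (median log2 0.57, 1.18 and 0.08), with 0, 2 and 0 at an unadjusted p below 0.05 and none by DESeq2 (10 of the 11 with an adjusted p) or limma (8 of the 11 tested). The cone list was dominated by genes present in every library, such as GNB3 at 2.34 to 10.2 FPKM and GNAT2 at 0.724 to 1.69 FPKM. ARR3 was at a count of 0 in 6 libraries and peaked in GL 3 at 3.62 FPKM. Of 14 genes of pigment epithelium and pigment cells, 2 were highest in GL 3. The most abundant ones, TYRP1 at 12.4 to 82.1 FPKM and PMEL at 20.6 to 36.5 FPKM, were highest in RL 1 and GL 2.

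Lens transcripts, another neighbouring tissue, followed a different order of libraries. The 16 lens genes in the table summed to 15160, 1703 and 2365 CPM in blue_light 1, 2 and 3, to 585, 2768 and 3117 CPM in GL 1, 2 and 3, to 388, 2874 and 2359 CPM in RL 1, 2 and 3, and to 5358, 8138 and 5287 CPM in control 1, 2 and 3. Blue_light 1 and control 2 were the highest libraries for lens and came next after GL 3 for rod transcripts, whereas GL 3 was the fifth for lens. Control 1 and control 3 were high for lens and near 0 for the rod genes other than ROM1. Of the 15 lens genes tested, 8 were higher in blue_light, 1 in GL and 0 in RL than in control (median log2 0.05, -1.53 and -1.53), with 1, 4 and 2 at an unadjusted edgeR p below 0.05 beside the same shares of all genes, and 1 called by DESeq2, in GL, of 13 with an adjusted p. CRYAA, the alpha-A crystallin gene, ran from 198 to 5258 FPKM. At most 2 of the 16 lens genes were at 0 in any library. The part of lens or retinal tissue in the values of the 8 genes was not tested.

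**Figure D5:**
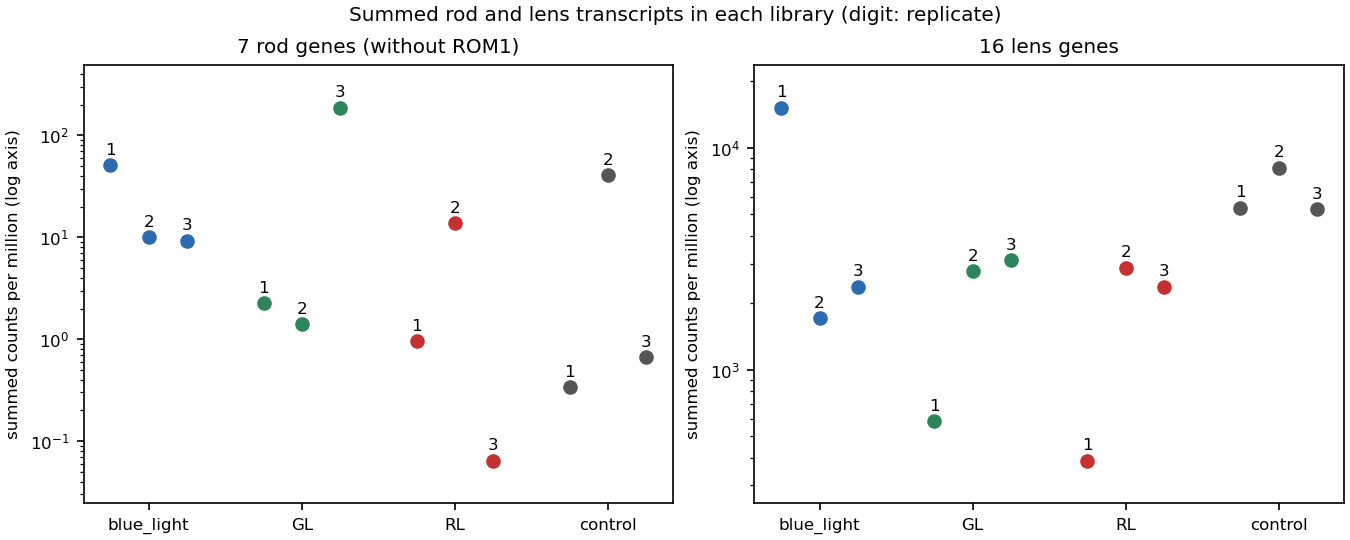
Summed CPM (log axis) of the 7 rod genes without ROM1 and of 16 lens genes in each library, grouped as blue_light, GL, RL and control, with digits for replicates. GL 3 leads the rod panel at 187 CPM and stands at 3117 CPM in the lens panel, where blue_light 1 leads at 15160 CPM.

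Depth and rare transcripts bear on the counts of 0. The 5 libraries blue_light 1 to 3, RL 1 and control 1 were richer in rarely counted genes: between 2389 and 2563 genes had a count from 1 to 20 there, against 767 to 1461 in the 7 others. All 3 blue_light libraries, in which no rod gene was at 0, belong to the first set, but so do control 1 and RL 1, with 6 and 4 of the 8 genes at 0. The part of this difference in the rod values was not tested.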

How the data were processed

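The authors deposited, per the file headers, a count, treated here as an estimated count, and an FPKM value (fragments-per-kilobase-per-million) per gene and library. The sources used here name neither aligner nor counter, and the submitters' processing notes name GRCm38 and mm10, mouse builds, although the table lists rabbit genes. Deposited counts were whole numbers, so rounding changed nothing, but low values piled up at steps of about 3.79 (2679 values of 4 against 851 of 3 and 626 of 5), which was taken as the count of 1 fragment. That gives an estimated 10.8 to 17.1 M fragments per library. An FPKM of 0.0001 stood for each count of 0 and was treated as 0.

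The 8 genes are rows of fits on all 18171 genes that passed filterByExpr. edgeR 4.0.16 quasi-likelihood fits with TMM factors of 0.944 to 1.06 gave 4 group means over 12 libraries, with Benjamini-Hochberg adjustment over all genes and a threshold of 0.05. A second model added the log2 index of photoreceptor genes. Alternatives used limma 3.58.1 on log2(FPKM + 1) and log2(FPKM + 0.1) for genes of mean FPKM 0.1 or more, DESeq2 1.42.0, other scaling, no filter, a block for replicate number, step-divided counts and omission of libraries. The fits were tested on simulated data. Named genes were planned as the 8 members, up to 4 genes of each list by mean FPKM, and the 8 genes most correlated with the members. Outside that plan, SLC24A1 was named for its share of the index. NR2E3, AQP4, RLBP1, TTR and OTX2 were named after their values were seen. The members and lists were chosen with earlier results of these data known. Some further genes of these lists are not reported here. Of the 8 gene identifiers, 7 were in the RefSeq table of assembly mOryCun1.1 with the same symbol. Replicate numbers were not used as pairs in the main fits. Of 18 same-numbered pairs 3 correlated above 0.1, with a median of 0.012 against -0.00275 for other pairs, which does not exclude a pairing. No sequence is printed, as none was used here.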

Additional observations from a re-analysis of the deposited data

How the results depend on the processing

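No rod gene crossed the threshold in a comparison with control under the alternatives that gave it an adjusted p. DESeq2 gave none for SAG, RCVRN, GNAT1, ROM1 and PRPH2, and in fits of only the groups compared RCVRN and PDE6B were filtered out in GL, and SAG, RCVRN, GNAT1, PDE6B and PRPH2 in RL. The 37 fitted folds that turned sign all came from leaving out libraries. Without blue_light 1, GL 3 and control 2 together, log2 folds in blue_light minus control were 0.0071 to 10.43, and RCVRN and PDE6B had no count in GL or control. Folds in GL minus control were 7.29 for SAG, 7.67 for GNAT1, 7.09 for PRPH2 and 1.53 for PDE6A, and became -0.36 for CNGA1 and -0.13 for ROM1. Folds in RL minus control were 9.755 for SAG, 8.48 for RCVRN, 8.43 for GNAT1, 1.26 for PDE6A, 6.28 for PDE6B and 8.62 for PRPH2, with -0.90 for CNGA1 and -0.02 for ROM1. With control at a count of 0 such fitted folds depend on the prior count and are no bound. Leaving out 1 library at a time gave these ranges of the fitted log2 fold. In blue_light minus control they were -0.35 to 11.73 for SAG, -0.23 to 10.20 for GNAT1, -0.76 to 3.53 for PDE6A, -0.088 to 9.25 for PDE6B, -0.031 to 2.91 for CNGA1, -0.63 to 10.01 for RCVRN, -1.30 to 10.67 for PRPH2 and -0.18 to 0.32 for ROM1. In GL minus control they were -3.47 to 12.95 for SAG, -1.58 to 12.38 for GNAT1, -1.62 to 5.48 for PDE6A, -7.78 to 10.91 for PDE6B, -2.30 to 2.73 for CNGA1, -9.77 to 10.77 for RCVRN, -3.27 to 12.88 for PRPH2 and -0.30 to 1.57 for ROM1. In RL minus control they were -10.76 to 9.75 for SAG, -9.25 to 8.43 for GNAT1, -3.12 to 1.26 for PDE6A, -7.80 to 6.28 for PDE6B, -9.12 to -0.91 for CNGA1, -9.78 to 8.47 for RCVRN, -5.28 to 8.62 for PRPH2 and -0.39 to 0.0081 for ROM1. Leaving out 1 library moved the number of genes changed to between 2 and 10 in blue_light, 3 and 21 in GL, 2 and 9 in RL and 5 and 25 for any difference, and the median rod gene slope on the photoreceptor index to between 1.96 (without control 2) and 4.03 (without GL 3). Over all genes, DESeq2 called 36 in blue_light, 183 in GL, 85 in RL and 310 for any difference. Fits of only the groups compared called 7, 28 and 5 in blue_light, GL and RL. limma on log2(FPKM + 0.1) called 5 in blue_light, 6 in RL and 21 for any difference, limma on log2(FPKM + 1) called 20 for any difference, and no filter gave 22. Without the 3 libraries named above, 1, 1 and 0 genes were called in blue_light, GL and any difference. On the index, limma called 32 genes with a median rod gene slope of 0.94, and a fit with no group terms called 1, ROM1. Adding 1 count to every value raised the median ratio SD to 2.72. The replicate block gave 2, 11, 3 and 11 genes in blue_light, GL, RL and any difference and a median slope of 2.36, and changed no rod gene call. Replicate numbers showed no clear pairing, though none is excluded: same-numbered libraries had a median correlation of 0.01, and 5 of 12 libraries correlated best with their own number. The causes of these shifts were not tested. Levels under the floor of 3 fragments are not resolved at this depth.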

Other observations

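Other retinal cell lists did not follow GL 3 as a whole: 2 of 8 Muller glia genes, 5 of 15 inner retina genes with a count and 2 of 14 genes of pigment epithelium and pigment cells were highest there. Of the 4 most abundant Muller glia genes, GLUL stood at 328.2 FPKM in GL 3 (159.5 to 341 FPKM over all libraries) and DKK3 at 33.0 FPKM (26.4 to 59.6 FPKM). SLC1A3, a glutamate transporter of Muller glia, was lowest in GL 3 at 4.74 FPKM, and GFAP stood at 0.656 FPKM there (0.198 to 1.675 FPKM over all libraries). The genes that follow were chosen after their values were seen. AQP4, the water channel of glia, stood at 1.28 FPKM in blue_light 1 and 0.177 FPKM in GL 3. RLBP1, which encodes the retinaldehyde-binding protein of Muller glia and pigment epithelium, stood at 0.632, 0.0834 and 0.0508 FPKM in blue_light, 0.0267, 0.221 and 3.99 FPKM in GL, 0, 0.151 and 0.0829 FPKM in RL, and 0.303, 0.749 and 0.204 FPKM in control. TTR, which encodes transthyretin, stood at 0, 0.248 and 0 FPKM in blue_light, 0, 0 and 5.56 FPKM in GL, 0, 0.473 and 0 FPKM in RL, and 0, 1.25 and 0 FPKM in control. RLBP1 and TTR were highest in GL 3 and next highest in control 2. OTX2, a transcription factor of photoreceptors, bipolar cells and pigment epithelium, was detected at 0.281 FPKM in blue_light 1, 0.133 and 1.61 FPKM in GL 2 and GL 3, and 0.229 FPKM in control 2, and was at a count of 0 in the 8 other libraries.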
